A study of Mus musculus with 2 samples.

Results

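The regions described here are shared peaks between genes. They are places in the mouse genome where DPPA2 chromatin immunoprecipitation followed by sequencing (ChIP-seq) gave a moderate peak in adriamycin-treated embryonic stem cells and also a peak in untreated cells. Their summits lay outside protein-coding genes, but could lie inside lncRNA genes or other gene types. The regions were chosen by measured values and by position. An adriamycin peak on chromosomes 1 to 19, X or Y became a member when its fold enrichment was below 9 and it overlapped an untreated peak by at least 1 bp. Its summit had to lie outside every RefSeq protein-coding gene and more than 1000 bp from any end of a protein-coding or lncRNA gene. This gave 2458 members of 16229 adriamycin peaks (15.1%). They make up 44.0% of the 5584 adriamycin peaks with an untreated counterpart, a class that itself holds 34.4% of the adriamycin list. Because overlap and fold chose the members, both are given below as descriptions.

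Adriamycin (doxorubicin) is a topoisomerase poison that breaks DNA. The cells were R1/E mouse embryonic stem cells, p53+/+, grown on gelatin with leukemia inhibitory factor. The adriamycin group was 1 library made after 8 h of the drug, labelled as an induction of apoptosis, and the untreated group was 1 library of wild-type control cells. Both were made with the same DPPA2 antibody and carry the same batch label, and the question was where DPPA2 sits once DNA is damaged. With 1 library per group there is no replicate, so each difference below is one between 2 libraries and none was tested.

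DPPA2 is a small nuclear protein with a SAP domain that works in a complex with its partner DPPA4 in pluripotent and germ cells. The pair binds CpG-rich and bivalent promoters, keeps some of them free of DNA methylation, and helps to switch on Dux, young LINE-1 elements and other genes of the 2-cell embryo. Much of the mouse genome between genes is made of repeats, and these include tandem arrays near chromosome ends and recently duplicated gene families. Reads from such copies can pile up at the one copy that the assembly holds.

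The deposited peak lists hold no sequence, and 0 members touched any of 32851 RefSeq promoter windows. The sequence shown is that of a microRNA gene, Mir760, whose hairpin lay within a member and is therefore DNA known to sit under the peak. The member spans chr3:122293331-122294009 (mm10). The hairpin spans chr3:122293585-122293703 on the minus strand, 157 bp from the summit at its nearer edge, inside the locus Gm40190 and 8589 bp from the protein-coding gene Dnttip2. The sequences are RefSeq's for GRCm38.p6, written 5′ to 3′ as RNA. In the hairpin, capitals mark CpG dinucleotides, and in the mature microRNAs they mark the seed, bases 2 to 8.
Mir760 hairpin: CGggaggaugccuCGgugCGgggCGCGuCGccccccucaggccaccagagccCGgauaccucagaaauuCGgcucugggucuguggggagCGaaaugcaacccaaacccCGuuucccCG
mmu-miR-760-5p: cCCCUCAGgccaccagagcccgg
mmu-miR-760-3p: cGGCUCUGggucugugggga

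This hairpin of 119 nt is rich in G and C. Its GC content is 67.2% and it holds 11 CpG dinucleotides, against medians of 51.7% and 1 over 1005 mouse hairpins. The member over it was weak in both libraries. It had a fold of 4.69 in the adriamycin list, against 3.503 in the untreated list. The summit was covered by 14 fragments (95% Poisson interval 7.65 to 23.5) with adriamycin, against 10 fragments (4.80 to 18.4) untreated. These intervals overlap. Poisson intervals for fragments, and Clopper-Pearson intervals for shares of peaks, are exact 95% intervals and cover counting error only.

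The members were modest peaks in both libraries. The fold enrichment, the authors' caller's ratio of summit over local background, had a median of 6.35 (quartiles 5.31 and 7.40) in the adriamycin list. At the untreated counterparts it was 5.51 (4.80 and 6.44). Folds ran between 2.37 and 8.99 with adriamycin, where 9 was the limit, and between 2.67 and 11.98 untreated, where 45 counterparts had a fold of 9 or more. The fold is not scaled between libraries. The number of fragments at the summit, the pileup, was therefore recovered from each peak's fold and p-value. Its median was 16 fragments (quartiles 13 and 19) with adriamycin, against 14 (12 and 18) untreated. The local background under a member was a median of 1.58 fragments with adriamycin and 1.64 untreated. Between the genome-wide value and 20 fragments, the backgrounds recovered for members were multiples of 0.02 fragments (within 0.002), for 2147 of 2147 members with adriamycin and 2012 of 2012 untreated. Such steps are known from ChIP libraries used as their own background, although no source used here states that this was done. In that case the folds hold no correction for input, and the fragments of a peak count in its own local background. Shared peaks of fold below 9 inside gene bodies had higher backgrounds, 2.16 and 2.22 fragments, and those at gene ends had the same 2.16 and 2.22.

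The peaks were wider in the adriamycin list. The median width was 404 bp there and 307.5 bp in the untreated list, and 1770 members (72.0%) were wider with adriamycin. This was not particular to members. Over all shared peaks the medians were 414 bp with adriamycin and 314 bp untreated. Among those of fold below 9 they were 387 and 298 bp in gene bodies, and 440 and 306 bp at gene ends. The share of wider peaks was not counted outside the members. The positions of members were close. Summits of the 2 libraries lay a median of 64 bp apart, and 66.1% of members (interval 64.2 to 67.9%) had summits within 100 bp of each other. In gene bodies this share was 64.5%, and at gene ends 55.2% (52.0 to 58.3%), below that between genes. Nearly every member had a counterpart of its own, with 2449 distinct untreated peaks and 24 members that overlapped 2 or more.

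Pileups were compared after scaling to the genome-wide background, 1.03 fragments in the adriamycin library and 1.19 in the untreated library, which multiplies adriamycin over untreated ratios by 1.16. The scaled ratio could be formed for 2453 members. Its median was 1.26 (quartiles 1.02 and 1.55). A ratio above 1 was found at 1877 members (76.5%), against 81.3% of all shared peaks. Among shared peaks of fold below 9 it was 82.9% in gene bodies and 84.6% at gene ends. Shared peaks in gene bodies had a median of 1.297, those at gene ends 1.33, and all shared peaks 1.31. A ratio of at least 1.5 was found at 675 members (27.5%, 25.8 to 29.3%), against 31.8% of all shared peaks. Without scaling the members' share was 13.1% and their median ratio 1.08. A ratio of at most 1/1.5 was found at 35 members (1.43%, 0.996 to 1.98%), against 1.08% of all shared peaks. The share with higher ratios lay a little under that of the shared peaks as a whole, of which the members are a part. The fold limit bears on this share, since it left out of the members the shared peaks between genes with a fold of 9 or more, whose median ratio was 1.55. At the 80 shared peaks over 60 times the genome-wide background in both libraries, taken from any location, the median was 0.998.

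**Figure D1:**
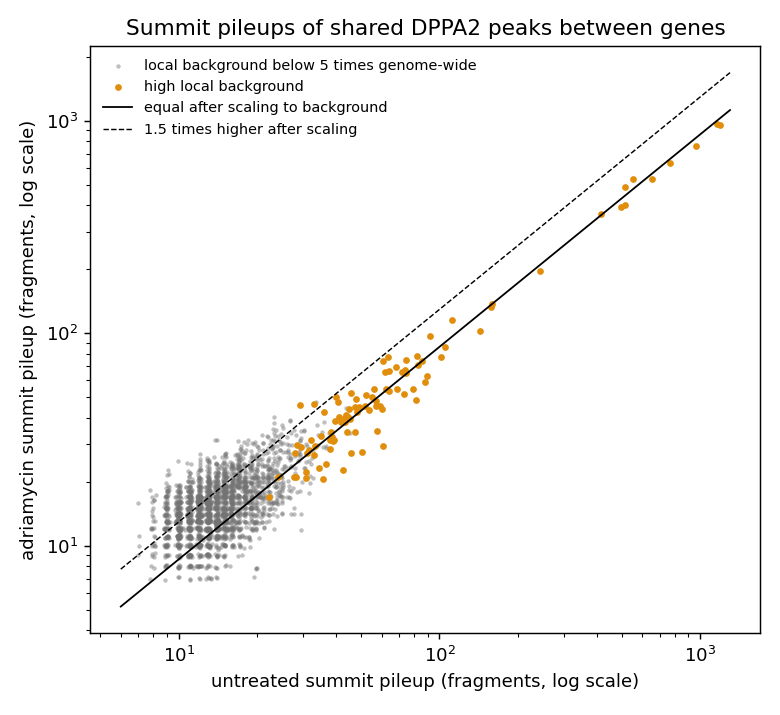
Summit pileups in fragments, adriamycin on the vertical and untreated on the horizontal axis, both on log scales, for the 2453 members with a recovered pileup in both libraries. Points are single members, slightly shifted at random to show overlaps; the solid line marks equality after scaling to background and the dashed line a ratio of 1.5, and the 97 orange members of high local background follow the solid line up to the highest pileups.

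For single members, counting error was large beside these ratios. With the adriamycin interval scaled to background, the intervals of 3 members did not overlap, each with the higher value in adriamycin, against 1.29% of all shared peaks in that direction and 0.0538% in the other. These 3 were named after their values were seen. One lay 34654 bp from Dlk1, an imprinted gene for a Notch-like ligand. It had a pileup of 31 fragments (21.1 to 44.0) with adriamycin, against 14 (7.65 to 23.5) untreated, a scaled ratio of 2.57. Without the scale the intervals of each of these 3 members overlap. One lay 18227 bp from Mup1, which encodes a major urinary protein, with 32 fragments (21.9 to 45.2) with adriamycin against 14 (7.65 to 23.5) untreated. One lay 61552 bp from Rxylt1, which encodes a glycosyltransferase of dystroglycan, with 25 fragments (16.2 to 36.9) with adriamycin against 10 (4.80 to 18.4) untreated. So for nearly every member the intervals of the libraries overlapped at this depth, which does not show that the heights were equal. The fold limit bears on the count of 3 as well. It left out the shared peaks between genes with a fold of 9 or more, whose median pileup was 29 fragments with adriamycin against 21 untreated.

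Among members with at least 15 fragments in both libraries, 868 in all, the largest scaled ratios were near 2. The largest was 64931 bp from Prdm11, of the PRDM family of nuclear proteins, with a ratio of 2.18. It had 32 fragments (21.9 to 45.2) with adriamycin, against 17 (9.90 to 27.2) untreated. The next 3 had 27 fragments (17.8 to 39.3) with adriamycin against 15 (8.40 to 24.7) untreated each, a ratio of 2.09. They lay 1063184 bp from Flrt2, an adhesion and axon guidance gene, 58889 bp from the olfactory receptor gene Olfr165 and 4511 bp from Flg2, which encodes a skin barrier protein. The fifth lay 43554 bp from Tdpoz3 and had 41 fragments (29.4 to 55.6) with adriamycin against 23 (14.6 to 34.5) untreated, a ratio of 2.07. Each of these 5 pairs of intervals overlaps.

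Of the 5 smallest ratios, 3 were in places of high local background, at least 5 times the genome-wide value in either library. The member 5605 bp from Gm15319 on chromosome 8 had 29 fragments (19.4 to 41.7) with adriamycin against 60 (45.8 to 77.2) untreated, a scaled ratio of 0.561. These intervals are apart before scaling and overlap after it. The member 94358 bp from Scaf8 on chromosome 17 had 23 fragments (14.6 to 34.5) with adriamycin against 43 (31.1 to 57.9) untreated and a ratio of 0.621, over local backgrounds of 7.12 fragments with adriamycin and 8.52 untreated. The one 9507 bp from Gm40469 on chromosome 8 had 28 fragments with adriamycin against 51 untreated and a ratio of 0.637. Those near Ccng1, which encodes cyclin G1, and Podxl, a sialomucin gene, lay over low backgrounds of at most 2.86 fragments. Near Ccng1, at 334280 bp, 15 fragments (8.40 to 24.7) with adriamycin stood against 28 (18.6 to 40.5) untreated, a ratio of 0.622. Near Podxl, at 32192 bp, 18 fragments (10.7 to 28.5) with adriamycin stood against 31 (21.1 to 44.0) untreated, a ratio of 0.674.

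Members that were high in one library tended to be high in the other. Over the 2458 members Spearman's rho was 0.44 for the folds, and 0.40 over those without high local background. Over the 2453 members with recovered pileups it was 0.55 for the pileups. These values describe peaks that share their 2 libraries and, in repeats, their local background. Within the members, those with higher folds in the adriamycin list also had higher untreated folds. The 469 members of adriamycin fold below 5 had a median untreated fold of 4.82, the 1167 with a fold of 5 to 7 one of 5.43, and the 822 with a fold of 7 to 9 one of 6.20. Their scaled ratios, which contain the value used for the choice, had medians of 0.9495, 1.25 and 1.49, so the median of 1.26 over the members depends on the range of folds taken in. Their distances from the nearest protein-coding gene end went the same way, with medians of 45952, 66224 and 114773 bp. At the fold limit, the nearest members inside had folds of 8.99, 8.99 and 8.98 and lay near A1bg, Dct and Rhobtb1. The nearest shared peaks left out had folds of 9.0, 9.01 and 9.01 and lay near Sim1, Dsel and Trhde.

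How far members lay from genes was not limited beyond 1000 bp. The median distance from a summit to the nearest protein-coding gene end was 74899.5 bp (quartiles 23440.2 and 235846). The 4037 adriamycin peaks chosen by the same gene rule and fold limit but without an untreated counterpart lay nearer, at a median of 58520 bp. Their median fold was lower, 5.04 against 6.35 for members. Distance rose with fold among members, as given above, and the sets were not matched for fold. The members are 37.8% of the 6495 peaks of these 2 kinds. The territory between genes, assembly gaps included, was taken from the first to the last gene of each chromosome, 1603 Mb in all. The 19 members outside this span were left out of the distance classes. Set against this territory, members were sparse next to genes. At 1 to 5 kb from a gene there were 0.959 per Mb (0.786 to 1.16), and at 10 to 50 kb there were 1.82 per Mb (1.69 to 1.96). At 500 kb to 1 Mb there were 1.13 per Mb (0.967 to 1.302), and beyond 1 Mb 1.29 per Mb (1.05 to 1.56). The adriamycin-only peaks were at 2.32 per Mb (2.04 to 2.62) in the nearest class, were densest, at 3.45 (3.10 to 3.83), at 5 to 10 kb, and reached 1.74 (1.47 to 2.06) beyond 1 Mb. The density of adriamycin-only peaks thus dropped with distance beyond 10 kb. That of members was nearly level between 5 and 100 kb and lower beyond, with 1.44 per Mb at 100 to 500 kb. At the distance limit the nearest members outside 1000 bp lay at 1008, 1020 and 1049 bp from a gene end, and the nearest shared peaks inside it at 985, 975 and 970 bp.

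**Figure D2:**
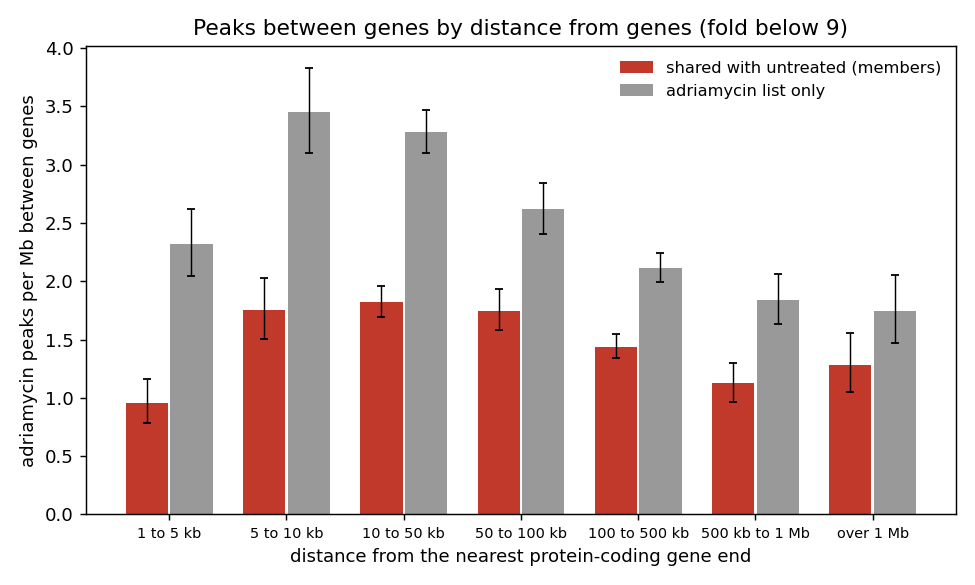
Adriamycin peaks of fold below 9 per Mb of territory between genes, by distance from the nearest protein-coding gene end, for members and for peaks in the adriamycin list only. Bars are counts per Mb with exact 95% Poisson intervals; members were lowest, at 0.959 per Mb, in the class nearest to genes and highest, at 1.82 per Mb, at 10 to 50 kb.

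The 5 most distant members lay at least 1900916 bp from a protein-coding gene end. The farthest, at chromosome 1, 102643949 to 102644258, was 2124259 bp from the cadherin gene Cdh20. Its fold was 6.02 with adriamycin and 6.20 untreated, with 12 fragments against 15. The deserts beside the protocadherin gene Pcdh17 on chromosome 14 held the second and the fifth, at 2034117 and 1900916 bp. The second had 11 fragments with adriamycin against 13 untreated, and the fifth 23 against 15. The third lay 1933425 bp from Celf4, an RNA-binding protein gene of neurons, with 17 fragments (9.90 to 27.2) with adriamycin against 24 (15.4 to 35.7) untreated. The fourth lay 1932286 bp from the lysosomal enzyme gene Aga, with 13 fragments against 9. Of these 5, then, 3 had fewer fragments with adriamycin than untreated and 2 had more.

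Most genes were nearest to few members. The 2458 members had 1635 distinct nearest protein-coding genes, of which 1221 were nearest to 1 member. After the clustered loci described below, the gene with most members was Pcdh7, another protocadherin, with 10 members at 43628 to 1622851 bp and scaled ratios between 0.774 and 2.32. Tbl1xr1, a corepressor subunit gene, had 9. The adhesion gene Ncam2 had 8, and Pcdh17 had 8. These counts follow the size of the desert around each gene as well as the density of peaks in it. By family, 42 members (1.71%, 1.23 to 2.30%) were nearest to a protocadherin gene, against 1.27% of the territory between genes. For cadherins it was 34 (1.38%, 0.960 to 1.93%) against 1.39% of the territory.

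Sensory receptor and zinc finger families were nearest to a larger share of members than their share of the territory. Olfactory receptor genes, which detect odours and lie in large clusters, were nearest to 69 members (2.81%, 2.19 to 3.54%), against 1.81% of the territory. Vomeronasal receptor genes, which detect pheromones, were nearest to 53 (2.16%, 1.62 to 2.81%), against 1.22%. Zinc finger genes were nearest to 54 (2.20%, 1.66 to 2.86%), against 1.34%. Without members of high local background the shares were 2.72%, 1.83% and 2.12%. Among adriamycin-only peaks they were 2.18% (1.75 to 2.68%), 1.31% (0.985 to 1.71%) and 1.66% (1.29 to 2.10%). The intervals of members and adriamycin-only peaks overlap for each of these families.

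A group of members lay inside gene types that the rule did not bar. Antigen receptor loci, whose segments are joined in lymphocytes, held 23 members. The loci that held any covered 8.13 Mb, or 2.83 members per Mb, beside 1.52 per Mb over the territory between genes. Loci without a member did not enter this density, which raises it. The immunoglobulin kappa locus Igk held 13 of them, with folds of 4.93 to 8.73 in the adriamycin list against 4.42 to 8.55 in the untreated list. The T cell receptor alpha locus Tcra held 4, the lambda locus Igl 3, the heavy chain locus Igh 2 and the gamma locus Tcrg 1. The density differed among them, with 4.10 per Mb over Igk and 2.23 over Tcra, against 0.727 over Igh, which is below that of the territory. Igl (0.234 Mb) and Tcrg (0.178 Mb) are short, and their densities of 12.8 and 5.60 per Mb rest on few members. Pseudogenes held 99 members (4.03%, 3.28 to 4.88%) and transcribed pseudogenes a further 29 (1.18%, 0.792 to 1.69%). Over such gene types together, neither protein-coding nor lncRNA, the share was 155 members (6.31%, 5.38 to 7.34%), against 2.37% of the territory and 7.03% (6.26 to 7.87%) of adriamycin-only peaks. The share is thus above that of the territory and not above that of the other adriamycin peaks between genes.

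Inside lncRNA genes the members were fewer than their territory. There were 192 (7.81%, 6.78 to 8.94%), against 9.73% of the territory and 9.98% (9.08 to 10.9%) of adriamycin-only peaks. The strongest by −log10 q were a neighbouring pair in 2700054A10Rik on chromosome 17, at 13551818 to 13553103 and 13550691 to 13551438. They had 113 fragments (93.1 to 136) and 95 fragments (76.9 to 116) with adriamycin, against 111 (91.3 to 134) and 92 (74.2 to 113) untreated. Both stood over high local background, 14.8 and 15.0 fragments with adriamycin and 15.9 and 16.1 untreated. The next 2 were at low background. One in Gm33699 had 27 fragments (17.8 to 39.3) with adriamycin against 12 (6.20 to 21.0) untreated, a scaled ratio of 2.61. One in Gm35479, 95122 bp from the sclerotome factor gene Pax1, had 26 (17.0 to 38.1) against 17 (9.90 to 27.2). The intervals of these 4 pairs overlap.

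Imprinted genes, which are expressed from the copy of 1 parent, had members nearby more often than protein-coding genes in general. Of 25 listed imprinted genes 8 had a member within 50 kb (32.0%, 15.0 to 53.5%), against 7.34% of all 21887 protein-coding genes. Those 8 were Igf2, Peg10, Sgce, Dlk1, Rtl1, Dio3, Nnat and Impact, with 7 distinct members, since Peg10 and Sgce share 1, and Dlk1, Rtl1 and Dio3 lie in 1 imprinted cluster on chromosome 12. The genes therefore do not count as independent, and no test was made.

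On chromosome 7 a member at 142604712 to 142605593 lay between H19, a growth-restraining lncRNA, and Igf2, a fetal growth factor gene, 27159 bp above the one and 45463 bp below the other. It had 28 fragments (18.6 to 40.5) with adriamycin against 24 (15.4 to 35.7) untreated. In the chromosome 12 cluster, beside the member near Dlk1 with its 31 and 14 fragments, a member inside the lncRNA gene Rian lay 8548 bp from Rtl1, a placental gene derived from a retrotransposon. It had 16 fragments (9.15 to 26.0) with adriamycin against 13 (6.92 to 22.2) untreated. The member 38945 bp from Dio3, which encodes an enzyme that inactivates thyroid hormone, had 17 (9.90 to 27.2) against 14 (7.65 to 23.5). These members had somewhat more fragments with adriamycin, by margins within counting error before scaling. After scaling, only the intervals of the member near Dlk1 were apart.

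At the other listed imprinted genes the members had fewer fragments with adriamycin, again within counting error. The member 1944 bp above Peg10, another retrotransposon-derived placental gene, is also that of Sgce, a sarcoglycan gene. It had 13 fragments (6.92 to 22.2) with adriamycin against 18 (10.7 to 28.4) untreated. Near Nnat, which encodes a small membrane protein, 11 fragments (5.49 to 19.7) with adriamycin stood against 14 (7.65 to 23.5) untreated. Near Impact, a regulator of translation, 16 (9.15 to 26.0) stood against 24 (15.4 to 35.7). The lncRNA gene Snhg14, which spans the imprinted region of Snurf and Snrpn on chromosome 7, held 6 members, noticed after the values were seen. Their scaled ratios were 0.650, 0.851, 1.16, 0.977, 0.870 and 0.794 in order of position, with 14 fragments against 25 at the first and 29 against 29 at the highest ratio.

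**Figure D3:**
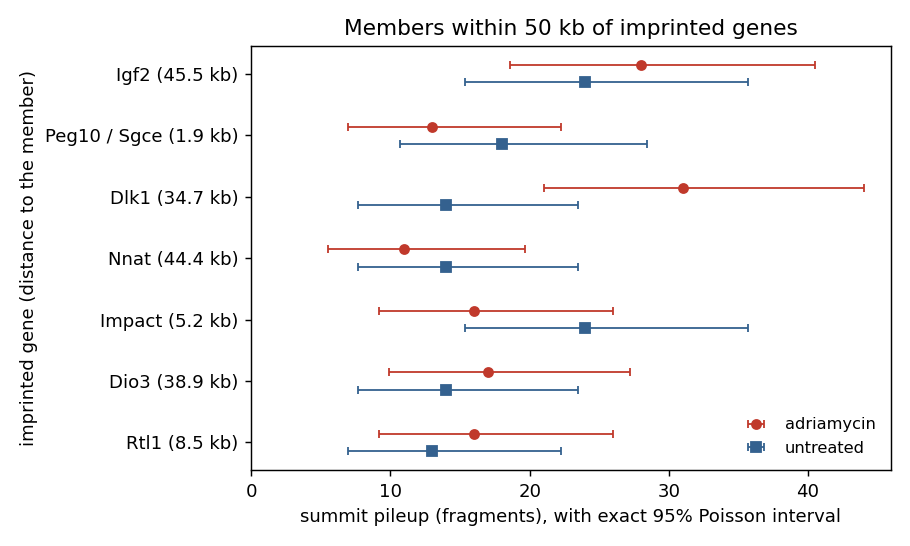
Summit pileups in fragments, with exact 95% Poisson intervals and before scaling, of the 7 members within 50 kb of a listed imprinted gene, in the adriamycin library (circles, upper) and the untreated library (squares, lower). The intervals overlap at each gene, and the widest gap is near Dlk1, with 31 fragments against 14.

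Genes of the 2-cell embryo and of preimplantation stages also had a higher share than all genes. Of 27 that matched, 7 had a member within 50 kb (25.9%, 11.1 to 46.3%), again beside 7.34% of all genes. They were the deubiquitinase genes Usp17la, Usp17lb, Usp17ld and Usp17le, the POZ domain genes Tdpoz3 and Tdpoz4, and the oocyte homeobox gene Obox5. These are recently duplicated families, and reads from near-identical copies cannot be placed with certainty. The member next to Usp17la and Usp17lb is 1 region, with 18 fragments (10.7 to 28.4) with adriamycin against 9 (4.12 to 17.1) untreated, a scaled ratio of 2.32. Near Usp17ld there were 2 members, with 15 and 16 fragments with adriamycin against 12 and 13 untreated. Near Usp17le 18 fragments (10.7 to 28.4) were found in both libraries. Near Tdpoz4 there were 15 (8.40 to 24.7) with adriamycin against 19 (11.4 to 29.7) untreated, where Tdpoz3 had the 41 against 23 given above. Near Obox5 there were 14 (7.65 to 23.5) against 12 (6.20 to 21.0). The window decides this count, since within 20 kb 2 genes had a member and within 100 kb 15.

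In the remaining lists the share of genes with a member within 50 kb was between 2.63 and 7.50%, beside 7.34% of all genes. Pluripotency factors had 2 of 32 (6.25%, 0.766 to 20.8%), the nuclear receptor genes Esrrb and Nr5a2. Esrrb had 19 fragments (11.4 to 29.7) with adriamycin against 14 (7.65 to 23.5) untreated, 29781 bp away, and Nr5a2 17 (9.90 to 27.2) against 13 (6.92 to 22.2), 13216 bp away. Germline genes had 1 of 38, Sycp1 of the synaptonemal complex, with 15 fragments in both libraries at 6225 bp. Developmental transcription factors had 3 of 43 (6.98%, 1.46 to 19.06%), Sox1, Nkx2-1 and Lhx2. The member near the neural factor gene Sox1 lay 6493 bp away inside the lncRNA gene Sox1ot, with 25 fragments (16.2 to 36.9) with adriamycin against 16 (9.15 to 26.0) untreated. Nkx2-1, a lung, thyroid and forebrain factor gene, had 12 against 10, and Lhx2, a forebrain and eye factor gene, 14 against 17.

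For genes of the p53 response, of apoptosis and of the DNA damage response, the intervals of the share with a member hold the 7.34% of all genes. Of 41 p53 target genes 2 had one (4.88%, 0.596 to 16.5%). Lif, whose product is the cytokine added to the medium, had a member 27667 bp away with 26 fragments (17.0 to 38.1) with adriamycin against 15 (8.40 to 24.7) untreated, a scaled ratio of 2.01. Tnfrsf10b, which encodes a death receptor for TRAIL, had one 17992 bp away with 15 (8.40 to 24.7) against 9 (4.12 to 17.1), a ratio of 1.93. Of 40 apoptosis genes 3 had one (7.50%, 1.57 to 20.4%). Bmf, a pro-apoptotic BH3-only gene, had 20 fragments with adriamycin against 16 untreated, and the TNF receptor gene Tnfrsf1a 24 against 16. Cycs, which encodes cytochrome c, had 13 against 19, the opposite order. Of 33 DNA damage response genes 1 had a member (3.03%, 0.0767 to 15.8%), the checkpoint kinase gene Chek1, with 11 against 12. Of 43 Wnt pathway genes 2 did, the ligand gene Wnt7a with 10 against 12 and the receptor gene Fzd7 with 22 against 16. The intervals overlap for each gene of these lists.

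Members were mostly solitary, and the exceptions formed dense runs. In all, 2178 members had no other within 10 kb, and 280 (11.4%, 10.2 to 12.7%) lay in runs of 2 or more. There were 77 pairs, 9 runs of 3 and 5 of 4, and the longest runs held 16, 12, 9 and 9 members. Runs and high local background went together. A background of at least 5 times the genome-wide value in either library, or a peak whose pileup was not recovered, marked 102 members (4.15%, 3.40 to 5.01%). Of these, 85 (83.3%) lay in runs, against 195 (8.28%) of the 2356 others. The median scaled ratio was 1.01 over 97 members of high background, against 1.27 over the others. Whether such places gather fragments without DPPA2 was not tested, since no input profile was used here.

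The longest run lay at the start of chromosome 9, between 3000587 and 3035449, with 16 members, each of high background. It is nearest to Alkbh8, a tRNA modification gene, at 309396 bp or more for the strongest members. Folds ran between 2.70 and 7.86 in the adriamycin list, against 2.67 and 7.92 in the untreated list. Over the 11 members with recovered pileups there were 195 to 968 fragments with adriamycin, against 248 to 1197 untreated, over local backgrounds of 55.2 to 342 and 66.1 to 429 fragments. Their scaled ratios stayed between 0.900 and 1.08. The 5 members with the highest −log10 q in the whole set belong to this run, and none of those 5 pileups could be recovered. The strongest, at 3023389 to 3024627, had a fold of 7.86 in the adriamycin list against 7.92 in the untreated list. Peak after peak, this run had nearly the same fold in both libraries.

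Such edges were found on some other chromosomes. Between 3.0 and 3.2 Mb, where the mouse assembly begins after the unsequenced centromere, 53 members lay on 13 chromosomes, 41 of them of high background. Chromosome 9 itself held 17 of the 53, with 16 of high background. The others of high background were 9 on chromosome 17, 7 on 4, 5 on 11, 3 on 18 and 1 on 16. Chromosomes 1, 2, 5, 6, 7, 14 and 19 held 1 or 2 members each and 0 of high background. The median scaled ratio was 0.962 over 48 of the 53 members. On chromosome 17 a run of 9 near Scaf8, between 3006819 and 3030924, had 23 to 132 fragments with adriamycin against 39 to 159 untreated. On chromosome 11 a run of 5 near the centrosome gene Sfi1 spanned 3773 bp, with 55 to 137 fragments against 79 to 157.

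The second place of runs was an array on chromosome 8. Between 20 and 20.9 Mb lay 68 of the 185 members of that chromosome, 75.6 per Mb, and 64 of them were in runs. The bounds of this stretch were set with the members' positions known, and the density depends on them. This stretch holds predicted genes such as Gm15319, Gm40469 and Gm21119, and the beta-defensin gene Defb33 at one end. Gm15319 was nearest to 27 members, 9530057J20Rik to 15 and Gm40469 to 13. The run of 12 between 20558630 and 20613026 had 11 to 55 fragments with adriamycin against 16 to 62 untreated and a median scaled ratio of 1.04. The run of 9 between 20367429 and 20395524 had 23 to 48 against 27 to 57 and a median of 0.977. Over the array the median was 0.946, with 28 of 68 members above 1, and 26 members were of high background. The median was 0.951 over those 26 and 0.942 (quartiles 0.831 and 1.11) over the 42 array members of lower background, against 1.28 (1.04 and 1.55) over the 2314 members of lower background elsewhere.

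**Figure D4:**
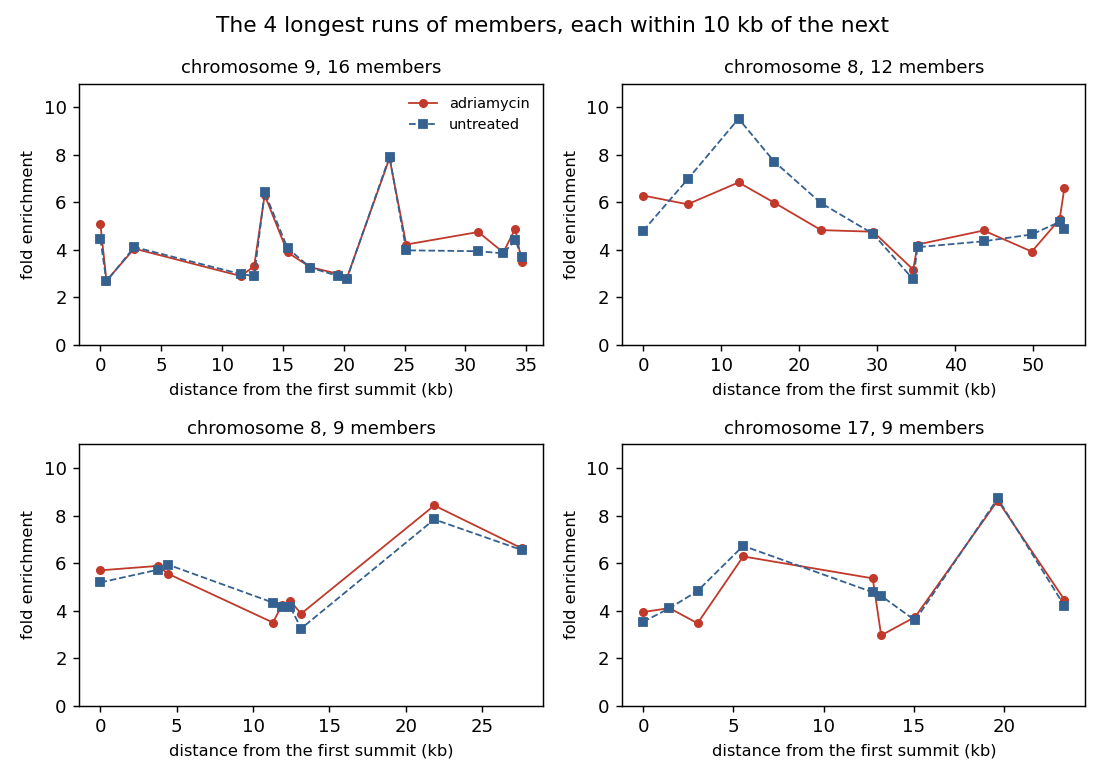
Fold enrichment, as the authors' caller gave it, along the 4 longest runs of members, with adriamycin (circles) and untreated (squares), by distance in kb from the first summit of the run. Folds of both lists follow each other along the 16 members on chromosome 9, and 1 of the 12 members of the longer chromosome 8 run reaches 9.52 in the untreated list, against 6.84 in the adriamycin list.

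Without high local background, the 8 members of highest −log10 q were peaks of moderate height, of which 7 stood alone. This set was chosen after the data were seen. The second lay in the chromosome 8 array, in the run of 9 near Gm15319, and had 44 fragments in both libraries. The third was the member near Tdpoz3 given above. The strongest lay at chromosome 12, 20196548 to 20197519, 43992 bp from Gm32719, with 47 fragments (34.5 to 62.5) with adriamycin against 34 (23.6 to 47.5) untreated. One lay 5232 bp from Dct and had 38 (26.9 to 52.2) against 23 (14.6 to 34.5), and one lay 1113620 bp from Tyrp1 and had 39 (27.7 to 53.3) against 27 (17.8 to 39.3). Both genes encode enzymes of melanin synthesis. The member 176724 bp from Epm2a, the laforin phosphatase gene, had 38 (26.9 to 52.2) with adriamycin against 36 (25.2 to 49.8) untreated. The one 193310 bp from Smim31 had 37 (26.0 to 51.0) against 34 (23.6 to 47.5). The one 50301 bp from Otos, an inner ear gene, had 39 (27.7 to 53.3) against 26 (17.0 to 38.1). Of the 8, then, 7 had more fragments with adriamycin, within counting error, and 1 had the same number.

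Members were spread over the chromosomes with a few departures. The chromosome densities count all 2458 members, including the 19 outside the span of the territory. Chromosome 8 had 2.48 per Mb of territory between genes (2.14 to 2.87), the highest density, and 2.11 per Mb without members of high background. Without the array it had 117 members, 1.59 per Mb (1.31 to 1.90). Chromosome 6 had 2.11 per Mb (1.81 to 2.44), and Igk held 13 of its 177 members. The lowest densities were on the sex chromosomes, 0.702 per Mb (0.562 to 0.867) on X and 0.250 (0.157 to 0.379) on Y. Adriamycin-only peaks between genes were also sparse there, with 1.68 per Mb on X and 0.284 on Y, against 2.52 per Mb over all chromosomes. The other chromosomes had 1.26 to 1.98 members per Mb.

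**Figure D5:**
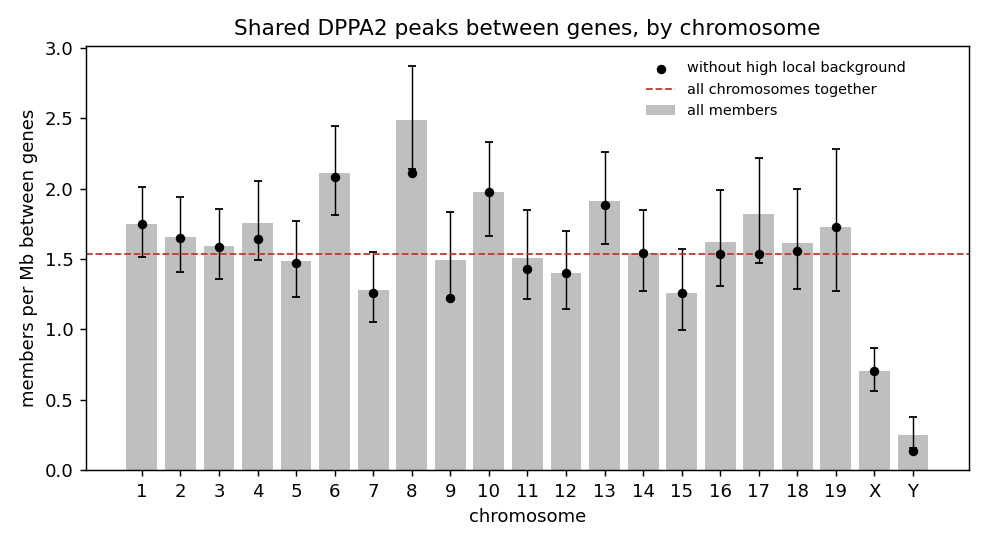
Members per Mb of territory between genes on each chromosome (bars, with exact 95% Poisson intervals), without members of high local background (points), and over all chromosomes together (dashed line). Chromosome 8 is highest at 2.48 per Mb, with its point at 2.11 and 1.59 without its array, and X and Y are lowest at 0.702 and 0.250.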

How the data were processed

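DPPA2 ChIP-seq peaks of 1 adriamycin and 1 untreated library were used, each list called per library. The treated sample's genotype label holds its treatment, so the title gave its group. Tools named in the submitters' processing notes are Bowtie2 2.5.1, MACS3 3.0.0b1, SAMtools, FastQC 0.12.1 and deepTools 3.5.1, with build mm10. The sources used here give neither filters nor an input control. Deposited per peak are the authors' fold, a ratio of summit over local background, their −log10 p and −log10 q, a score equal to 10 times −log10 q, and another value, the distance from peak start to summit.

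Whole-number summit pileups were recovered from fold (pseudocount 1) and −log10 p (Poisson tail, tolerance 0.001), for 99.9% of adriamycin and 99.8% of untreated peaks. The lists carry no read totals, so depth is given per summit. The lowest local background served as the genome-wide value. Gene positions came from a RefSeq table of GRCm38.p6 without strand or exons. Base composition and motifs under peaks were not analysed here. The recovery and the overlap counting were tested on simulated data. Python 3.11.15, numpy 2.4.6, pandas 2.3.3, scipy 1.17.1 and matplotlib 3.10.9 were used.

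The regions and gene lists were chosen with earlier results of these data known. Regions named are the 5 of highest −log10 q, of largest and of smallest scaled ratio with 15 or more fragments in both libraries, farthest from genes and strongest in lncRNA genes, the 3 longest runs, those 3 nearest each limit, and list genes with a member within 50 kb. Some others are marked where named as chosen after the values were seen. The antigen receptor loci, chromosome edges, chromosome 8 array and genes nearest to most members also fall outside this rule. They were named with the values known. Of the regions this rule names, 1 is not reported here. Alternatives changed the overlap, q, distance, fold, background and scale settings, the treatment of runs, and the window of the gene lists.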

Additional observations from a re-analysis of the deposited data

Results flagged for a closer look

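Peaks on unplaced contigs lay outside the rule and stood out as signal in data not otherwise used. The adriamycin list held 136 such peaks and the untreated list 123, on 25 contigs. Of the adriamycin ones 102 overlapped an untreated peak, and 82 of those had a fold below 9. The median fold was 5.17 with adriamycin and 5.19 untreated. Contigs often hold repeats that could not be placed, and without gene positions on them these peaks could not be called between genes. The mitochondrial genome held 6 adriamycin and 3 untreated peaks.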

How the results depend on the processing

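Of 99 values under alternatives, 77 stayed within the set margins and 22 moved. A change of direction was defined only for the median scaled ratio, which stayed above 1 under each alternative. A q of at most 1e-05 in both lists left 1250 members, with a median scaled ratio of 1.21, 19.3% at a ratio of at least 1.5, median folds of 6.95 with adriamycin and 6.39 untreated, a median distance of 89476 bp, and 4 imprinted genes, where 3.51% of all genes had a member. Summits within 100 bp left 1630, with a median untreated fold of 5.70 and 9.88% with another within 10 kb. An overlap of 50% of both peaks gave an untreated fold of 5.67, and a distance of over 5000 bp from genes a median of 85994 bp. Without the upper fold limit the ratio was 1.29, the share at a ratio of at least 1.5 31.7%, and the folds 6.72 with adriamycin and 5.84 untreated. Without high local background 7.98% had another member within 10 kb. Without scaling the ratio was 1.08 and the share 13.1%. These alternatives change which peaks enter or how they are scaled.

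The gene list windows were added after the data were seen. Within 20 kb, 4 genes of the imprinted list and 2 of the 2-cell list had a member, against 3.02% of all genes, and within 100 kb 8 of the imprinted list and 15 of the 2-cell list did, against 13.4%.

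No paired analysis was possible because each group had 1 library. At 14 to 16 fragments per median summit, counting error alone exceeds most differences between the libraries at a single member.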
